A study of Mus musculus with 27 samples.

Results

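The minus-strand reads of an in vitro slicing assay were examined, that is, reads that ran opposite to the artificial target RNAs and so in the sense of the piRNAs that the targets were designed to pair with. They were chosen as every minus-strand entry of the deposited slicing table, in which an entry is a pair of a read start and a read end and its value is summed over all targets of a pool. The minus strand held 395 of the 1204 entries, and the plus strand 809. A narrower group, called guide-like here, was the minus-strand entries of 28 to 32 nt with an end at position 0, of which there were 5.

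The study purified Strep-tagged mouse MIWI with its bound piRNAs and let it slice 2 pools of RNA transcribed in vitro with T7 polymerase, each pool holding 15000 designed targets. Targets of the Perfect pool were complementary to MIWI-bound piRNAs over 32 nt, and targets of the Bulge pool carried a 2-nt mismatch opposite piRNA nucleotides 10 and 11. Slicing ran for 2 h at 35 °C, and 2 libraries were sequenced per pool, called Perfect 1, Perfect 2, Bulge 1 and Bulge 2. The labels do not say whether these 2 libraries came from separate reactions, so their spread may be technical. They also do not say which knock-in line gave the protein or whether it was bound to beads or eluted. Reactions without MIWI were not analysed here.

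MIWI is a PIWI-clade Argonaute of male germ cells, and its guides are pachytene piRNAs, single-stranded small RNAs that mostly begin with uridine. The guide stays in the protein, pairs with a target, and the protein cuts the target between the bases opposite guide nucleotides 10 and 11. Per the labels, slicing was stopped with proteinase K and the RNA was extracted for small RNA libraries, with no stated step that removes guides. A guide would be read on the minus strand, with its first nucleotide at position 0 of the target coordinates.

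The coordinates could be read from the table itself. Plus-strand fragments starting at position -9 summed to 19665 and 15929 RPM (reads scaled to the size of the library) in Perfect 1 and 2, against 3476 and 2910 RPM at position -10. Plus-strand fragments ending at position -10 summed to 2485 and 1696 RPM in these libraries, against 447 and 457 RPM at position -9. The 2 fragment ends lie side by side if both end positions belong to the read, and the lengths here are counted that way. Position 0 is then opposite piRNA nucleotide 1, position -9 opposite nucleotide 10 and position -31 opposite nucleotide 32. Positions 1 to 20 are the common 3′ sequence of a pool, and positions -32 and -33 are 2 bases ahead of the piRNA-complementary stretch.

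The minus strand made up most of the table in the Perfect pool and the smaller part in the Bulge pool. It summed to 175266 and 148223 RPM in Perfect 1 and 2, against 7674 and 7948 RPM in Bulge 1 and 2. The means were 161745 ± 19123 RPM in Perfect and 7811 ± 194 RPM in Bulge (SD, n = 2 each), a ratio of 20.7, and the libraries of the pools did not overlap. This ratio depends on the scaling, since the plus strand was also higher in Perfect, at a mean of 120564 RPM against 23198 RPM, a ratio of 5.20. With each table rescaled to a single total, the minus strand averaged 89777 RPM in Perfect and 40004 RPM in Bulge. As a share of all RPM in the table, the minus strand took 62.3% and 52.4% in the Perfect libraries and 22.3% and 28.7% in the Bulge libraries. An exact two-sided permutation test gave p = 0.33 for the sum and for the share, the smallest p that 2 libraries against 2 allow. The same holds for every Perfect against Bulge sum, share and mean length below whose libraries do not overlap, so their p is not repeated.

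Guide-like reads were the leading class of the minus strand in the Perfect pool and close to the limit of detection in the Bulge pool. They summed to 90881 and 80647 RPM in Perfect 1 and 2, against 1.51 and 3.30 RPM in Bulge 1 and 2. They made up 51.9% and 54.4% of minus-strand RPM in the Perfect libraries (mean 53.1 ± 1.81%, SD, n = 2), against 0.0197% and 0.0416% in the Bulge libraries (mean 0.0306 ± 0.0155%, SD, n = 2). If the smallest value of a library stands for 1 read, the Bulge sums are about 22 and 45 reads. The share is set within each library and does not depend on how libraries are scaled to each other. It can still depend on mapping, since per the labels each pool was mapped to its own sequences. Every guide-like read covers the site of the designed mismatch, where a piRNA with its own bases differs from the Bulge sequences. Whether guides were scarce in the Bulge reactions or could not be mapped was not tested.

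Within the guide-like group, 2 lengths carried most of the signal. The entry of 29 nt, from position -28 to 0, held 34228 and 30739 RPM in Perfect 1 and 2, against 0.206 and 0.147 RPM in Bulge 1 and 2. The entry of 30 nt, from -29 to 0, held 33616 and 29458 RPM in the Perfect libraries, against 0.756 and 0.808 RPM in the Bulge libraries. In both Perfect libraries these 2 entries were the highest of all minus-strand entries, at 20.1% and 19.5% of the mean minus-strand RPM.

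The other 3 guide-like lengths fell away on either side. At 28 nt the values were 10310 and 8904 RPM in the Perfect libraries, against 0.137 and 1.54 RPM in the Bulge libraries. At 31 nt they were 9703 and 8899 RPM, against 0.137 and 0.514 RPM. At 32 nt, the full length of the complementary stretch, they were 3023 and 2648 RPM, against 0.275 and 0.294 RPM. Just outside the length limits, the entry of 27 nt with an end at 0 held 5474 and 4353 RPM in the Perfect libraries, against 0.756 and 0.808 RPM in the Bulge libraries. The entry of 33 nt held 243 and 204 RPM in the Perfect libraries, against 0.481 and 0 RPM in the Bulge libraries, where 0 allows up to 0.220 RPM for Bulge 2 by counting error alone. The steep step between 32 and 33 nt lies at the end of the designed complementarity.

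In a limma fit across entries of both strands, on log2(RPM + 1), the guide-like entries had log2 fold changes of 14.75 (SE 0.40) for 29 nt, 14.11 (SE 0.40) for 30 nt, 12.79 (SE 0.42) for 31 nt, 12.46 (SE 0.51) for 28 nt and 11.11 (SE 0.41) for 32 nt. Of these 5, 4 passed the filter on low values (at least 1 RPM in 2 or more libraries) through the Perfect libraries alone and so had to differ, and the fold changes are given as a description with no count of calls. The entry of 27 nt had 11.42 (SE 0.41), above that of 32 nt. With Bulge values this low, the size of the fold is set largely by the added 1 RPM and should be read beside the RPM values.

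The 5′ end of the minus-strand reads was sharply placed in the Perfect pool. Reads of any length that ended at position 0, with the 5′ base at piRNA nucleotide 1, summed to 125365 and 107494 RPM in Perfect 1 and 2, against 15.1 and 27.1 RPM in Bulge 1 and 2. They took 71.5% and 72.5% of minus-strand RPM in the Perfect libraries, against 0.197% and 0.341% in the Bulge libraries. In Perfect 1 and 2 the signal at position 0 was 12.9 and 11.6 times that at position -1, and 507 and 440 times that at position 1. In Bulge 1 and 2 the same ratios were 0.608 and 0.904, and 1.36 and 1.67, so no peak at position 0 was seen there. No minus-strand entry had its start, the 3′ end of the read, at position 0.

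Not all reads that began at nucleotide 1 had piRNA length. In the Perfect libraries 72.5% and 75.0% of them were guide-like. Reads of this kind shorter than 28 nt summed to 34166 and 26584 RPM in Perfect 1 and 2, against 12.5 and 19.2 RPM in Bulge 1 and 2. Among them the Perfect libraries were locally highest at 22 nt, where the entry stood at 4392 and 3173 RPM, against 3.02 and 5.14 RPM in the Bulge libraries. The entries of 20, 21 and 23 nt lay below it, at 3317, 3357 and 3396 RPM in Perfect 1 and at 2562, 2612 and 2816 RPM in Perfect 2. The entry of 26 nt was not analysed here, so a sum over the short lengths lacks it.

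Reads that began a few bases further in also ended further from position 0. With the 5′ base at nucleotide 2, 3 or 4, reads summed to 29587 and 25079 RPM in the Perfect libraries, against 57.8 and 71.9 RPM in the Bulge libraries, which is 16.9% of minus-strand RPM in each Perfect library. Of the reads that began at nucleotide 1, 54.1% and 56.0% ended at nucleotide 29 or 30 in Perfect 1 and 2. This share was 28.0% and 28.3% for reads from nucleotide 2, 16.9% and 16.2% from nucleotide 3, and 9.82% and 10.8% from nucleotide 4. The commonest 3′ end was nucleotide 29 for reads from nucleotide 1, nucleotide 31 for reads from nucleotide 2 and nucleotide 32 for reads from nucleotide 4, in both libraries. From nucleotide 3 it was nucleotide 31 in Perfect 1 and nucleotide 32 in Perfect 2.

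The entry from -30 to -1, again of 30 nt, had the highest mean over the 2 Perfect libraries among entries with the 5′ end away from position 0. It stood at 2838 and 3060 RPM in the Perfect libraries, against 1.10 and 0.881 RPM in the Bulge libraries (log2 fold change 10.53, SE 0.41). In Perfect 1 alone the entry from -31 to -3 was higher, at 3037 RPM. The entry from -30 to -1 was the only 1 of the 10 highest Perfect entries by mean that did not begin at nucleotide 1, and the only 1 of these 10 that was higher in Perfect 2 than in Perfect 1. The other 9 of the 10 spanned 20 to 31 nt and included 4 of the 5 guide-like entries, and the 10 together held 64.1% of the mean minus-strand RPM. Of all minus-strand reads of 28 to 32 nt, 81.7% in each Perfect library ended at position 0. The entries of 28 and 32 nt ending at position 2 were not analysed here and are missing from that total.

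In the Bulge pool the minus strand had another shape. Reads whose 5′ base lay at nucleotide 12 or later, a class set after the values were seen, took 95.9% and 94.9% of minus-strand RPM in Bulge 1 and 2, against 1.87% and 1.66% in Perfect 1 and 2. Here the Bulge libraries were also the higher in RPM as deposited. The class summed to 3279 and 2454 RPM in the Perfect libraries, against 7362 and 7546 RPM in the Bulge libraries, a ratio of Bulge to Perfect means of 2.60. This ratio depends on the scaling, since the table totals differ between the pools: with each table rescaled to a single total the class averaged 1591 RPM in Perfect and 38153 RPM in Bulge.

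The edge of this class fell at the designed mismatch. Reads that began at nucleotide 12 summed to 945 and 664 RPM in Perfect 1 and 2, against 2518 and 2499 RPM in Bulge 1 and 2. Reads that began 1 base closer to the piRNA 5′ end, at nucleotide 11, summed to 1011 and 699 RPM in the Perfect libraries, against 33.3 and 41.1 RPM in the Bulge libraries. The step from nucleotide 11 to 12 was thus 0.935-fold and 0.950-fold in the Perfect libraries, where it was flat, and 75.7-fold and 60.8-fold in the Bulge libraries.

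Counted by the bases covered, nucleotide 11 lay within 98.1% and 98.3% of minus-strand RPM in Perfect 1 and 2, against 3.92% and 5.04% in Bulge 1 and 2. Nucleotide 12 lay within 98.7% and 98.8% in the Perfect libraries, against 36.7% and 36.4% in the Bulge libraries, and nucleotide 20 within 93.9% and 94.5%, against 99.2% in each Bulge library. Reads that spanned both nucleotides 10 and 11 summed to 170949 and 145052 RPM in the Perfect libraries, against 268 and 359 RPM in the Bulge libraries. Per the labels the reads of each pool were mapped to the sequences of that pool, so a piRNA that keeps its own bases at nucleotides 10 and 11 differs there from the Bulge sequences. How many mismatches the mapping allowed is not given in the sources used here. Whether the pools differed in the RNA present or in what could be mapped cannot be told apart.

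The 10 highest Bulge entries shared no member with the 10 highest Perfect ones. All 10 ended at nucleotide 29 to 33 and were 17 to 22 nt long, 5 began at nucleotide 12, and none was guide-like. They were chosen for their Bulge values, so their fold changes are a description. The highest ran from -30 to -11, which is nucleotides 12 to 31, and held 216 and 179 RPM in the Perfect libraries, against 564 and 780 RPM in the Bulge libraries. Its log2 fold change was -1.75 (SE 0.41). The entry from -31 to -12 had the largest fall, with 127 and 96.9 RPM in the Perfect libraries, against 361 and 786 RPM in the Bulge libraries (log2 fold change -2.25, SE 0.50). The 2 Bulge libraries of that entry differed from each other more than the 2 Perfect ones.

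Each of the 45 entries of this class had at least 1 RPM in all 4 libraries. Of the 45, 24 were lower in Perfect by limma at an adjusted p under 0.05, 2 were higher and 19 did not pass, against 12.3% lower and 51.1% higher over all entries tested. The count of lower entries depended on the setting. Among fits with all 4 libraries, the fewest lower calls were 17, with 0.1 RPM added in place of 1. The most were 43, with each table rescaled to a single total. Without Perfect 1 or Perfect 2, the median log2 fold change of the class was -1.466 and -1.002. These counts describe a class set after the values were seen. Its median log2 fold change was -1.20, while the median over all 1095 entries tested was 1.01. The largest falls after the 1 named were -1.96 for -31 to -11, -1.78 for -28 to -13, -1.78 for -31 to -15 and -1.76 for -29 to -11. The 2 that were higher in Perfect, named after their values were seen, both reached position -33, the end of the target. Other entries of the class that reached -33 were not called higher. That from -33 to -11 was called lower (log2 fold change -1.13, SE 0.41), and the rest were not called, with log2 fold changes from -0.067 to 1.02. The entry from -33 to -17 held 70.9 and 50.7 RPM in the Perfect libraries, against 16.1 and 12.9 RPM in the Bulge libraries, and that from -33 to -18 held 52.5 and 36.6 RPM, against 9.29 and 11.2 RPM.

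The 3′ ends of this class shared their commonest position but not their whole spread. With no entry under 15 nt and the target ending at nucleotide 34, reads of this class could end only at nucleotides 26 to 34. Those from nucleotide 16 on had to end past nucleotide 29. Likeness of the pools in these 3′ ends is thus partly fixed in advance, and the values are given as a description. The commonest 3′ end was nucleotide 32 in all 4 libraries, and the mean 3′ end was nucleotide 31.5 ± 0.12 in Perfect and 31.3 ± 0.15 in Bulge (SD, n = 2 each). The 3′ end lay past nucleotide 29 in 83.1% and 85.6% of the class in the Perfect libraries, against 81.2% and 86.9% in the Bulge libraries, which overlap (exact permutation p = 1). The 3′ end lay at nucleotides 31 to 33 in 55.0% and 59.0% in the Perfect libraries, against 62.4% and 71.2% in the Bulge libraries. It lay at nucleotide 34, the end of the target, in 16.4% and 17.4% in the Perfect libraries, against 7.09% and 4.67% in the Bulge libraries, and neither share overlapped between the pools. Reads from nucleotide 12 made up 28.83% and 27.05% of the class in the Perfect libraries, against 34.2% and 33.1% in the Bulge libraries.

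Over the whole minus strand, read length and 3′ end differed between the pools as the classes did. The mean length was 26.69 and 26.98 nt in Perfect 1 and 2, against 18.32 and 18.91 nt in Bulge 1 and 2, and the commonest length was 29 nt in both Perfect libraries, 19 nt in Bulge 1 and 20 nt in Bulge 2. Reads of 15 to 23 nt took 25.2% and 22.4% of minus-strand RPM in the Perfect libraries, against 98.8% and 98.1% in the Bulge libraries. No minus-strand entry was shorter than 15 nt. The 3′ end lay past nucleotide 29 in 42.1% and 43.5% in the Perfect libraries, against 79.0% and 84.1% in the Bulge libraries.

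Some minus-strand reads ran beyond the stretch designed to be complementary to piRNAs. Whether such reads came from piRNAs was not tested. Reads whose 3′ end passed nucleotide 32, into the 2 leading bases of the target, summed to 5535 and 4285 RPM in Perfect 1 and 2, against 1622 and 1783 RPM in Bulge 1 and 2. This was 3.16% and 2.89% of minus-strand RPM in the Perfect libraries, against 21.1% and 22.4% in the Bulge libraries.

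At the other side, reads whose 5′ base lay in the common 3′ sequence summed to 2056 and 2084 RPM in the Perfect libraries, against 71.2 and 86.6 RPM in the Bulge libraries. As shares of the strand these were close, at 1.17% and 1.41% in the Perfect libraries and 0.928% and 1.09% in the Bulge libraries. Their 5′ ends were not evenly spread. In the Perfect libraries position 2 stood out with 1658 and 1702 RPM, against 3.85 and 5.58 RPM in the Bulge libraries. The entries from -30, -29 and -25 to position 2 were not analysed here, so sums at position 2 and over the common sequence lack them. The Perfect libraries held 247 and 244 RPM at position 1 and 39.2 and 41.6 RPM at position 3, against 11.1 and 16.2 RPM and 3.92 and 8.88 RPM in the Bulge libraries. Position 7 was instead the highest of the common sequence in the Bulge libraries, with 23.8 and 15.3 RPM in the Perfect libraries, against 37.5 and 45.9 RPM in the Bulge libraries. Per the labels the common sequence is a different one in each pool, so these positions do not hold the same bases.

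Across single entries the fit was made once with a filter and once without. With the filter 304 of the 395 minus-strand entries were tested, of which 115 passed through Perfect libraries alone, 4 guide-like entries among them, and so had to differ. Their calls are therefore given as a description: 241 were higher in Perfect and 30 lower by limma at an adjusted p under 0.05. Over all 1095 entries of both strands 63.5% were called, 51.1% higher and 12.3% lower. Without a filter all 395 were tested, and 267 were higher and 36 lower, against 48.8% higher and 11.5% lower over all 1204 entries. By 5′ end, again as a description, all 19 entries from nucleotide 1 and all 145 from nucleotides 2 to 11 were higher in Perfect in both fits. Both fits use the same values. Of the 19, 11 passed the filter through Perfect libraries alone, so their direction was fixed in advance. From the common sequence, 75 of the 95 tested entries were higher and 6 lower with the filter.

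The median of each class kept its sign under the other scalings tried. With the table of each library rescaled to a single total, the median log2 fold change over all tested entries was -1.46, against 1.01 as deposited. That of entries from nucleotide 1 was then 9.09, that of nucleotides 2 to 11 was 3.52, that of the common sequence was 0.58 and that of nucleotide 12 or later was -4.34, with 43 of its 45 entries lower and 0 higher. Calls were fewer than as deposited for the other classes, with 18 of 19 entries from nucleotide 1 higher, 125 of 145 from nucleotides 2 to 11 higher, and 27 higher and 14 lower of 95 from the common sequence. The split of called minus-strand entries was 170 higher and 57 lower there, against 241 and 30 as deposited.

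The minus and the plus strand of a library were set side by side by the same rule. On the minus strand 51.9% and 54.4% of the RPM were guide-like in Perfect 1 and 2, against 0.00720% and 0.00498% on the plus strand. In Bulge 1 and 2 the shares were 0.0197% and 0.0416% on the minus strand, against 0.0276% and 0.0358% on the plus strand. The minus strand was the higher in 3 of the 4 libraries, with a mean difference of 26.6 percentage points (exact two-sided paired permutation p = 0.375). That mean rests on the Perfect libraries: it was 18.1 without Perfect 1 and 17.3 without Perfect 2, and 35.4 when Bulge 1 or Bulge 2 was left out.

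Reads were shorter on the minus strand in every library. The mean lengths were 26.69 and 26.98 nt on the minus strand against 36.6 and 42.2 nt on the plus strand in Perfect 1 and 2. In Bulge 1 and 2 they were 18.32 and 18.91 nt on the minus strand against 38.2 and 38.6 nt on the plus strand. All 4 differences had the same sign, which is the most extreme outcome among the 16 exchanges of the strands and cannot pass 0.05 in an exact paired permutation test. The intact target, from -33 to 20, appeared on the plus strand with 28074 and 59838 RPM in the Perfect libraries, against 4242 and 1733 RPM in the Bulge libraries. It is 54 nt long, and no minus-strand entry was longer than 50 nt.

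The minus-strand 5′ end at nucleotide 1 stands 9 positions from the plus-strand start at position -9, so the 2 reads share 10 nt. The plus-strand start there took 18.5% and 11.8% of plus-strand RPM in Perfect 1 and 2, against 0.298% and 0.229% in Bulge 1 and 2. It was thus high in the same 2 libraries as the guide-like reads. So were most entries: over all 1095 tested, 62.3% were higher in both Perfect libraries than in either Bulge library. A link between the 2 reads was not tested.

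The 2 libraries of a pool gave nearly the same minus-strand profile. Across the 395 entries, which share the depth of their library and are not independent replicates, Pearson's r of log2(RPM + 1) was 0.996 between the Perfect libraries and 0.960 between the Bulge libraries. Between libraries of different pools it was 0.207 to 0.263. Bulge 2 held 282 minus-strand entries above 0, against 379 in Bulge 1 and 384 in each Perfect library.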

How the data were processed

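Small RNA libraries of an in vitro slicing assay were analysed, 2 from the Perfect and 2 from the Bulge pool, grouped by their titles. The long RNA and MIWI-bound small RNA libraries of the series were not used here. The authors deposited RPM values per strand, read start and read end, summed over the targets of a pool. Per the labels' protocols, NEBNext small RNA libraries were sequenced in paired-end mode and mapped to the sequences of their own pool. Among the tools in the submitters' processing notes are Bowtie and cutadapt, with no statement of which made this table. The RPM denominator is not given in the sources used here. The table summed to 281514 and 283103 RPM in Perfect 1 and 2, against 34360 and 27658 RPM in Bulge 1 and 2. Target sequences and 4 further start and end pairs within the range were not analysed here. These pairs were the 26-nt entry ending at 0 and the entries from -30, -29 and -25 to position 2.

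If the smallest value is 1 read, depth was 14.07 and 13.00 M reads in Perfect 1 and 2 and 14.55 and 13.62 M reads in Bulge 1 and 2. Only 62.5% to 92.7% of values on both strands then came within 0.01 of whole reads, so no count test was run. On the minus strand alone this was 39.8% and 39.1% in Perfect 1 and 2, and 89.7% and 84.8% in Bulge 1 and 2. A value of 0 allows up to 3 reads, by counting error only.

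Sums, shares and lengths were set against each other over libraries with exact permutation tests, two-sided (Python 3.11.15, numpy 2.4.6, pandas 2.3.3). Entries were tested with limma 3.58.1 in R 4.3.3 on log2(RPM + 1), with Benjamini-Hochberg adjustment at 0.05 over both strands. Entries that reached 1 RPM in 2 or more libraries were kept. The code was first tested on simulated data, where it found 16 of 100 changes of 2-fold and 50 of 100 of 4-fold, with 2 false calls. An entry that did not pass may therefore still differ. Entries named were the 10 highest of each pool, the guide-like ones, and the 5 called with the largest fold change in each direction. Other sets of replicates, scalings, pseudocounts, filters, lengths and end positions were tried. Length as end minus start, the crossed pairing and the results on 5′ ends from nucleotide 12, on nucleotides 10 and 11 and on 3′ ends past nucleotide 29 were added after the data were seen. The members and lists were chosen with earlier results of these data known.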

Additional observations from a re-analysis of the deposited data

Results flagged for a closer look

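The strands stood in opposite order in the pools. Minus-strand less plus-strand RPM was 69018 and 13342 in Perfect 1 and 2, against -19013 and -11761 in Bulge 1 and 2, so the minus strand was the larger in both Perfect libraries and the smaller in both Bulge libraries. The share of reads of 28 to 32 nt at any position did the same, with the minus strand less the plus strand at 33.7 and 46.8 percentage points in Perfect 1 and 2, against -5.09 and -6.76 in Bulge 1 and 2. These 2 results are listed because every library of a pool went the same way and the pools went opposite ways. The difference between the pools was not tested. The pools were mapped to different sequences, and mapping and pool cannot be told apart.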

How the results depend on the processing

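The 10 sums, shares and lengths kept their direction in all 77 alternatives run, and the 22 named entries kept their sign wherever they were tested. Leaving out 1 library at a time, the difference of Perfect minus Bulge ranged from 140412 to 167455 RPM for the minus-strand sum, from 80644 to 90878 RPM for the guide-like sum and from 51.8 to 54.4 percentage points for its share. Without Perfect replicate 1 or 2 the count of called minus-strand entries was 124 and 123, against 271, and over all libraries left out it ranged from 123 to 277. Without a Perfect replicate fewer entries pass the filter, 188 and 189 against 304, and the lone library is assumed to vary like the others. Some named entries were not tested there. Those tested that then missed the threshold were all lower in Perfect. The other settings gave 214 to 303 called. With the replicate block limma called 270, and with the crossed pairing, added after the data were seen, also 270. The labels do not say that the replicate numbers mark a shared reaction or day, so the numbers are not taken as pairs. Deviations of same-numbered libraries correlated at -0.029 across entries, which cannot decide this with 2 libraries per pool and entries that are not independent. The guide-like sum without Bulge replicate 1 or 2 left a Bulge mean of 3.30 or 1.51 RPM, against 2.41. With length taken as end minus start, the guide-like share was 47.3% in Perfect and 0.0232% in Bulge, and with 26 to 34 nt 56.3% and 0.0764%. With 2 libraries per pool no exact test could pass 0.05, and guide-like values of a few reads in Bulge limit any fold.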
